A study of Mus musculus with 56 samples.

Results

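Kap encodes the kidney androgen-regulated protein, a transcript of proximal tubule epithelium, and it was followed here as 1 gene of the 17027 in the kidney table, in all 56 libraries. The gene was chosen by its level. Its mean was the highest in TPM as computed again here, though not in the values as deposited. Because of this choice its level is described below without a test, and its dependence on time of day and on feeding time is tested. The libraries were made from poly(A) RNA of kidneys of female C57BL/6J mice that were 9 weeks old and for which the sources name no engineered allele. Food was restricted for 7 days to the night (nighttime-restricted feeding, NRF, the reference regimen) or to the day (daytime-restricted feeding, DRF), under 12 h of light and 12 h of dark. The labels also give 7 days of entrainment for every sample. Collection fell on ZT0, 4, 8, 12, 16, 20 and 24, where zeitgeber time (ZT) counts the hours from lights on, and each of the 14 groups had 4 mice. The libraries held 25.4 to 28.1 M reads over the recovered genes (M for mega). A read here is 1 count recovered from the deposited values, and whether it stands for a single read or a read pair was not tested. Only females were studied, and no stage of the oestrous cycle was given in the sources.

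As background, the proximal tubule reabsorbs most of the filtered glucose, amino acids, phosphate and bicarbonate, and it is divided along its length into the S1, S2 and S3 segments. Kap is named for its rise under androgen in the cortical tubule, while in females and castrated males its transcript is known mainly from the S3 segment in the outer medulla. Thyroid and pituitary hormones have been tied to that androgen-independent part. The protein is small, is found in tubule epithelium and binds cyclophilin B, the product of Ppib.

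Kap (Entrez 16483, ENSMUSG00000032758.4) lies on the minus strand of chromosome 6, from 133849851 to 133853762 in GRCm38, and has 4 exons with 707 bases in GENCODE M21. Its longer transcript, Kap-201, holds all 707 of these bases, and the shorter, Kap-202, holds 464. The first 200 bases of the coding sequence of Kap-201 are shown because the level of the gene depends on which of these models is used, and the 51 capitals mark the bases that Kap-202 lacks (chromosome 6, 133852044 to 133852094):

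Kap-201 coding sequence: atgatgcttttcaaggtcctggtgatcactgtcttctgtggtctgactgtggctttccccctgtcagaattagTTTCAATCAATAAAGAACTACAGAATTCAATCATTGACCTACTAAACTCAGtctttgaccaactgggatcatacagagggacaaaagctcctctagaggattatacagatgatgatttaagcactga

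The whole coding sequence has 366 bases with its stop codon, and that of Kap-202 has 315. With a length of 707 bases the deposited values of Kap gave whole reads, within rounding error, in 37 of the 37 libraries where this could be checked, where 46.7% would do so by chance. The 707-base model was therefore used. With 464 bases, the mean level would have been 4198 TPM and rank 10, so the place of Kap at the top of the TPM order rests on this model.

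Levels are given as TPM, the reads per exon base of a gene scaled to one total in every library. Kap had a mean of 74037 ± 23352 TPM (SD, n = 56), with a lowest value of 26937, a median of 74867 and a highest of 137173. On average 7.40% of all TPM in a kidney library belonged to this gene, from 2.69% to 13.7%. In reads, which are not divided by length, its mean share was 1.76%. The lowest share, 0.602% (95% Wilson interval 0.599% to 0.605%), was in NRF ZT8 library 4, and the highest, 3.46% (3.46% to 3.47%), in DRF ZT20 library 2. With 157488 to 913145 reads per library, the counting error of Kap was at most 0.252% of its value, so the difference of 5.09-fold between the extreme libraries was far outside counting error. Reads were not counted with molecular identifiers, so these intervals cover counting error only.

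Gpx3, the plasma glutathione peroxidase secreted by the proximal tubule, was second in mean TPM, at 61186 ± 8934 TPM (SD, n = 56). Kap was first in 39 of the 56 libraries, and in the other 17 Gpx3 was above it. By reads Gpx3 was first on average (3.70% of reads), and Kap had rank 2 in 51 libraries, rank 3 in 4 and rank 5 in 1. The exon length of Gpx3 could not be checked against whole reads. In the deposited values as they stand, which are logarithms divided by length, Kap was second on average to Atp5md. The name of the most abundant transcript thus held for the mean TPM and not for every library or unit.

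Other transcripts among the 10 highest were far lower. Fth1, the ferritin heavy chain, had 11522 ± 758 TPM, and Klk1, a kallikrein of the distal tubule, had 10009 ± 1168. Ftl1, the ferritin light chain, had 6249 ± 940 TPM, and Eef1a1, a translation elongation factor, 6051 ± 476. Pck1, the key enzyme of gluconeogenesis, had 5537 ± 1450 TPM, Napsa, an aspartic protease of proximal tubule cells, 4533 ± 744, and Umod, uromodulin of the thick ascending limb, 4267 ± 934 (SD, n = 56 for each). From the lowest to the highest library Kap spanned 5.09-fold, Gpx3 1.98-fold, and Pck1 6.21-fold.

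**Figure D1:**
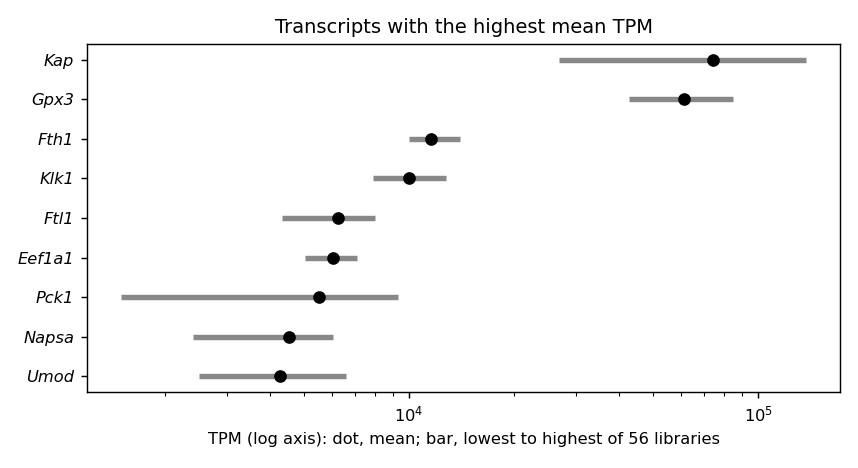
Mean TPM (dot) and the range from the lowest to the highest of the 56 libraries (bar) of transcripts among the 10 with the highest mean, on a log axis. Kap (74037 TPM) and Gpx3 (61186 TPM) stand apart from Fth1 (11522 TPM) and the rest, and the bar of Kap is among the widest.

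The spread of Kap lay mostly between mice of the same group. With 1 library per mouse, this spread also holds any differences of dissection, RNA handling and library preparation. The SD of its log2(TPM + 1) within groups was 0.46, against a median of 0.14 over the 13397 genes tested (mean TPM of at least 1), which put Kap at the percentile 96.5 of this SD. Among the 104 genes with a mean of at least 1000 TPM it ranked 4th. Differences between mice of 1 group made up 65.4% of the sum of squares of Kap, where the median gene had 50.8%. With 14 groups of 4 mice, a gene without group differences would also have most of its sum of squares within groups. This share therefore does not show that the groups were alike. Within groups the highest mouse was between 1.17-fold and 3.47-fold above the lowest, and in 5 of the 14 groups this ratio was over 2.

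To determine whether Kap followed time of day or feeding time, its level was compared among the groups. Under NRF the 4 mice at ZT0 had 68053, 90139, 87585 and 86381 TPM (mean 83040 ± 10113, SD, n = 4 here and for each group mean). At ZT4 they had 37955, 78798, 30325 and 79829 TPM (56727 ± 26270), and at ZT8 93582, 49235, 85821 and 26937 (63894 ± 31320). Both of these light-phase groups held 2 mice near the level at ZT0 and 2 mice at 49235 TPM or less. At ZT12 the values were 76359, 67867, 72863 and 105259 TPM (80587 ± 16813), and at ZT16 80310, 77956, 94840 and 85612 (84679 ± 7493). At ZT20 they were 72784, 66602, 126422 and 100436 TPM (91561 ± 27505), the highest of the 14 group means. At ZT24 they were 100405, 66253 and 67437 TPM, and 53973 in the library whose column carries no replicate number of the labels (72017 ± 19880).

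Under DRF the values at ZT0 were 79614, 50939, 45813 and 97614 TPM (68495 ± 24456). At ZT4 all 4 mice were low, with 45673, 43315, 39170 and 49015 TPM (44293 ± 4140), the lowest of the 14 group means. At ZT8 2 mice had 48649 and 53164 TPM and 2 had 95639 and 102497 (74987 ± 28008). At ZT12 the values were close together, at 83200, 83450, 83101 and 71483 TPM (80309 ± 5885). At ZT16 they were 76176, 68585, 45879 and 74632 TPM (66318 ± 14014), and at ZT20 57678, 137173, 67461 and 62816 (81282 ± 37474). At ZT24 they were 125691, 75103, 89320 and 63209 TPM (88331 ± 27098).

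**Figure D2:**
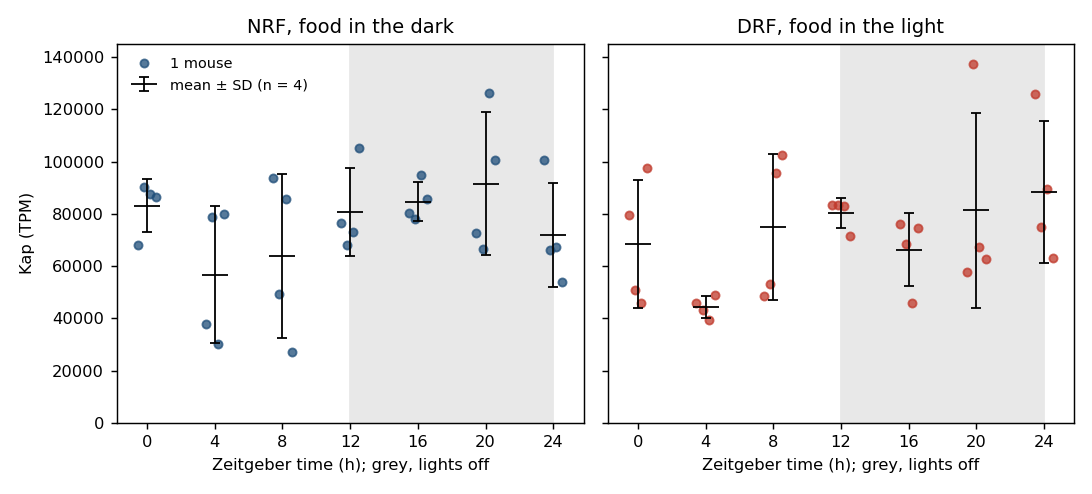
Kap in TPM (linear axis from 0) in each mouse against zeitgeber time, NRF on the left and DRF on the right, with the mean ± SD of the 4 mice in black and the dark phase in grey. The ZT4 group is the lowest of each regimen (56727 TPM under NRF and 44293 under DRF), and mice of one group differ by up to 3.47-fold.

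The 14 group means ran from the highest, NRF ZT20, through DRF ZT24, NRF ZT16, NRF ZT0, DRF ZT20, NRF ZT12 and DRF ZT12. Below these came DRF ZT8, NRF ZT24, DRF ZT0, DRF ZT16, NRF ZT8, NRF ZT4 and DRF ZT4. Sorting the means makes gaps between neighbours small by itself, so these gaps do not test whether groups differ. In 12 of the 13 neighbouring pairs the gap between the means was smaller than the SD of either group. The exception was the last step, from 56727 TPM at NRF ZT4 to 44293 at DRF ZT4, where the gap of 12434 TPM was above the SD of DRF ZT4 and below that of NRF ZT4, and all 4 DRF values lay inside the NRF range.

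Under NRF Kap passed the test of a 24-h cosine, with an amplitude of 0.39 ± 0.13 (SE, log2 scale) and a peak at ZT17.9 ± 1.12 (SE, h), in the dark phase when these mice fed (limma F test over 28 libraries, adjusted p = 0.0396). From trough to peak this is 1.71-fold. Of the 13397 genes tested, 53.1% passed the same test, so a rhythm call was the more common outcome. The call was close to the threshold: 8 of the 27 numbered NRF libraries ended it when left out singly, with adjusted p from just over 0.05 to 0.0953, and so did leaving out all libraries of any single time point (0.0519 to 0.140). It was also lost with a replicate block (adjusted p = 0.0603), with no filter on low genes (0.119), and without replicate 3 (0.231) or replicate 4 (0.138) of every group. The 8 were replicates 1 and 3 at ZT4, 2 and 4 at ZT8, 3 and 4 at ZT16, and 3 and 4 at ZT20, and without them 1 at a time the amplitude was 0.30 to 0.39.

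Under DRF the fitted amplitude was 0.20 ± 0.13 (SE, log2) with a peak at ZT17.0 ± 2.25 h, and Kap did not pass (limma, adjusted p = 0.433), where 34.6% of genes did. The difference between the regimens' cosines was itself not past the threshold (limma interaction, adjusted p = 0.638, with 45% of genes called), so a rhythm under one regimen only was not shown. With no cosine assumed, the 7 time points did not differ past the threshold under NRF (limma, adjusted p = 0.175, 52.8% of genes called) or DRF (adjusted p = 0.139, 51.3% called). A 12-h component was fitted under DRF with an amplitude of 0.34 ± 0.11 (SE, log2) and a peak at ZT10.3 and 12 h later, with adjusted p = 0.0691, where 25.1% of genes were called. Under NRF the 12-h amplitude was 0.13 ± 0.12 (adjusted p = 0.918, 0.597% called).

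The clearest time difference was between the light and the dark phase under NRF. The 8 mice at ZT4 and ZT8 had a mean of 60310 ± 27034 TPM, and the 8 at ZT16 and ZT20 had 88120 ± 19022. Of the light-phase mice 4 were below 50000 TPM and of the dark-phase mice 0, while the highest light-phase mouse, at 93582 TPM, was above the dark-phase median of 82961. On the log2 scale Kap was lower in the light by 0.67, a difference of -0.67 ± 0.22 (SE; limma, adjusted p = 0.0130, 42.6% of genes called), or 0.629 of the dark level. Without ZT4 library 3 the difference was -0.54 (adjusted p = 0.0503), and without ZT8 library 4 -0.49 (adjusted p = 0.0632).

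Under DRF the 8 mice at the same light-phase times and the 8 at the same dark-phase times had 59640 ± 24753 TPM in the light and 73800 ± 27386 in the dark, a difference of -0.33 ± 0.22 (log2, SE; limma, adjusted p = 0.297, 24.4% called). These differences were 0.34 ± 0.31 apart on the log2 scale (adjusted p = 0.421, 35.4% called). Kap was thus fitted lower in the light in both regimens, but only the NRF difference passed. The 95% interval of the DRF difference, -0.77 to 0.11, included no difference. Under DRF the ZT4 mean was low (44293 TPM), while the ZT8 mean (74987) was above that of ZT16 (66318).

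Feeding time itself left no difference in Kap that passed a test. DRF minus NRF in the mesor (the mean over the day) was -0.09 ± 0.12 (log2, SE; limma, adjusted p = 0.686), where 10.8% of genes passed. At the single time points DRF minus NRF was -0.34 for ZT0 (18.7% of genes called), -0.23 for ZT4 (28.1%), 0.31 for ZT8 (15.9%), 0.01 for ZT12 (19%), -0.38 for ZT16 (6.09%), -0.22 for ZT20 (17.1%) and 0.28 for ZT24 (15.4%), each ± 0.31 (log2, SE) and with adjusted p from 0.487 to 0.985 by limma. At ZT16 alone the groups did not overlap, with 45879 to 76176 TPM under DRF and 77956 to 94840 under NRF, as was true of 11.5% of all genes at that time. The share of all genes with no overlap was 21.1% for ZT0, 18.9% for ZT4, 23% for ZT8, 22.6% for ZT12, 15.3% for ZT20 and 21.7% for ZT24, times at which the groups overlapped in Kap. The standard error of 0.31 means that a difference between 2 groups of 4 mice would have to be large to pass.

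The first and last collections stand 1 day apart at the same hour. ZT24 minus ZT0 was -0.23 ± 0.31 under NRF (log2, SE; limma, adjusted p = 0.880, 0.687% of genes called) and 0.39 ± 0.31 under DRF, where limma called 0 genes (0%) and 490 had an unadjusted p under 0.05. Kap was not among the 490 (unadjusted p = 0.222).

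Because Kap differed so much between mice of one group, the genes that differed with it were sought. Levels were taken as log2(TPM + 1) and the mean of each group was subtracted, so that time and feeding do not enter. Kap takes a share of the total that other genes' TPM are scaled by, and over the 56 libraries this share alone can move the TPM of every other gene by up to 0.17 (log2) from one library to another. The median correlation of the other 13396 genes with Kap was -0.15 on the TPM scale, and 0.09 when Kap was left out of the total, so correlations are given on both scales where it matters. In RNA of a whole kidney, fewer cells of a type and less RNA per cell cannot be told apart.

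Among the genes with a mean of at least 10 TPM, the one most like Kap was Slc22a7, an organic anion transporter of the S3 segment, with r = 0.90 across the 56 libraries. It was 0.92 in the NRF and 0.88 in the DRF libraries, and 0.91 with Kap left out of the total. Slc22a7 had 313 ± 111 TPM (SD, n = 56), from 95.5 TPM in NRF ZT8 library 4, which also had the lowest Kap, to 636 TPM in DRF ZT20 library 2, which had the highest. On the TPM scale it was the only gene of the 13396 with r above 0.8. As it was picked for this likeness, no p is given.

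**Figure D3:**
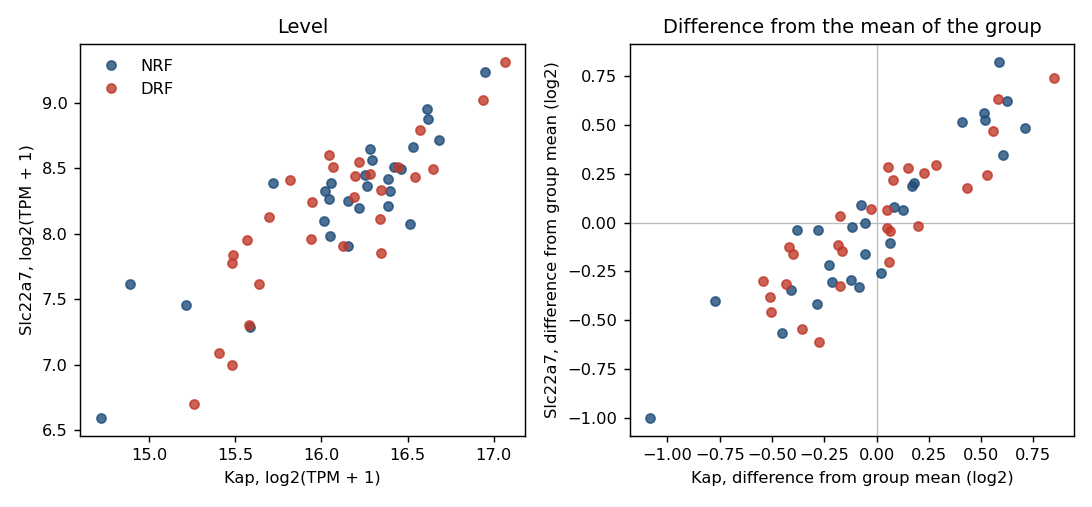
Slc22a7 against Kap in the 56 libraries (blue, NRF; red, DRF), as log2(TPM + 1) on the left and as the difference from the mean of the mouse's own group on the right. The points on the right follow one line in both regimens (r = 0.90 over all 56 libraries).

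Slc22a7 was also among the genes closest to Kap over the 14 group means (r = 0.85). Each group mean is of 4 mice, so differences between mice that both genes share also enter it. This r is therefore not independent of the likeness within groups. As a member of the S3 list, Slc22a7 was tested and was lower in the light under NRF, a difference of -0.76 ± 0.21 (log2, SE; limma, adjusted p = 0.00233), and under DRF, -0.80 ± 0.21 (adjusted p = 0.00329). These tests use the same mice as those of Kap and do not add independent evidence on its time course. At ZT4 under DRF it had 130 ± 22.4 TPM and at ZT20 403 ± 166 (SD, n = 4), where Kap had 44293 and 81282.

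The next genes by likeness within groups were Irf5, an interferon regulatory factor (r = 0.76), Acot7, an acyl-CoA thioesterase (0.76), Ppic, cyclophilin C (0.75), and Bdh1, the mitochondrial ketone body dehydrogenase (0.75). Each kept an r of 0.66 or more within either regimen. Over the 14 group means the closest were Slc22a19, another organic anion transporter (r = 0.90), the hydroxysteroid dehydrogenases Akr1c14 (0.89) and Akr1c18 (0.88), the lipid-binding Sec14l3 (0.86) and Slc22a7. Akr1c14 and Akr1c18 belong to a family of similar genes whose reads may be shared. Light minus dark under NRF was -0.56 ± 0.18 for Slc22a19, -1.06 ± 0.28 for Akr1c14, -1.27 ± 0.43 for Akr1c18 and -1.61 ± 0.47 for Sec14l3 (log2, SE). These genes were picked for following the group means of Kap, so no test of this difference is given.

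The genes that went most against Kap within groups were Ugt1a7c, a glucuronosyltransferase (r = -0.88), Gc, the vitamin D binding protein (-0.85), and Man1a, a Golgi mannosidase (-0.85). With Kap left out of the total they were at -0.86, -0.82 and -0.77, and the exons that Ugt1a7c shares with its family leave its own reads uncertain. Over group means the most opposed were the ribosomal protein genes Rplp0 (-0.90) and Rpl34 (-0.84) and the glutathione transferase Gstm7 (-0.87). Of these, Rplp0 had r = -0.35 within groups and 0.09 with Kap left out, so its direction depends on the scale.

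Genes of the 3 proximal tubule lists did not move with Kap as a block. All 11 genes of the S1 and S2 segments had a negative r with Kap within groups, with a median of -0.62, against a median of -0.15 over all genes. They were Slc2a2, the basolateral glucose transporter (-0.73), the amino acid transporters Slc7a8 (-0.68), Slc6a19 (-0.67) and Slc7a7 (-0.61), the bicarbonate transporter Slc4a4 (-0.66), the lactate transporter Slc5a12 (-0.65), the glucose transporter Slc5a2 (-0.62), Gatm of creatine synthesis (-0.62), the phosphate transporter Slc34a1 (-0.60), and the organic anion transporters Slc22a8 (-0.40) and Slc22a6 (-0.30). Their mean level correlated with Kap at r = -0.70 (Spearman rho = -0.70; permutation within groups, n = 56, p = 1e-05, the smallest that 100000 permutations give, adjusted over 19 lists 6.33e-05), and at -0.67 without the 2 libraries farthest from the median. It was -0.61 with Kap left out of the total and -0.46 with median-of-ratios rescaling (permutation, adjusted p = 0.0176).

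The S3 list was divided. Of its 13 genes Slc3a1 could be given no length, and of the other 12, 6 had a positive and 6 a negative r with Kap. Beside Slc22a7 (0.90), the positive ones were the flippase Atp11a (0.51), the sterol hydroxylase Cyp7b1 (0.50), the amino acid transporters Slc7a12 (0.38) and Slc7a13 (0.15), and the sugar transporter Slc5a10 (0.18). The negative ones were the monocarboxylate transporters Slc5a8 (-0.54) and Slc16a9 (-0.44), the fucosyltransferase Fut9 (-0.39), Acsm3 of fatty acid activation (-0.33), the glucose transporter Slc5a1 (-0.07) and Ggt1, gamma-glutamyl transferase (-0.03). The last 2 turned positive with Kap left out of the total (0.19 and 0.34). The mean of the list had r = 0.38 (permutation, n = 56, p = 0.0174, adjusted p = 0.0513; rho = 0.43, adjusted p = 0.0190) and 0.31 without the 2 farthest libraries, the median of its members had r = 0.02, and with Kap left out of the total the mean had r = 0.57 (permutation, adjusted p = 8.23e-04).

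Of the 16 genes of the whole proximal tubule, 10 had a negative and 6 a positive r. Ass1, argininosuccinate synthase (-0.69), and the transcription factor Hnf4a (-0.61) were among the lowest, and Napsa (0.68), the aminoacylase Acy3 (0.53) and the water channel Aqp1 (0.28) the highest. Slc27a2, a fatty acid transporter, and Miox, which cleaves inositol, had -0.03 and -0.39. The mean of this list gave r = -0.28 (rho = -0.24; permutation, n = 56, p = 0.106, adjusted p = 0.202), -0.23 without 2 libraries, and 0.16 with Kap left out of the total, so its sign depends on the scale.

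**Figure D4:**
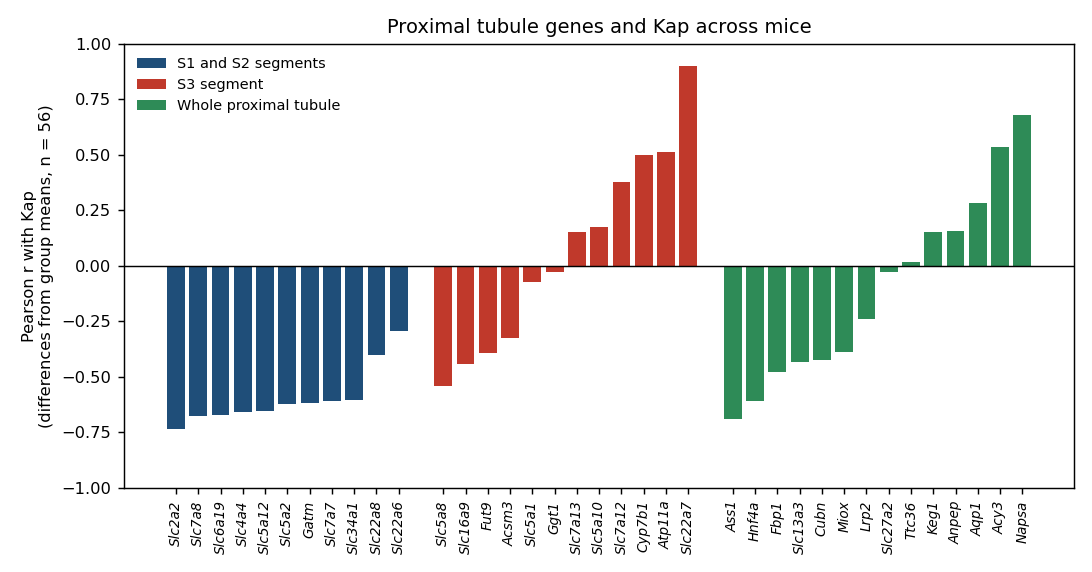
Pearson r with Kap of tested genes of the 3 proximal tubule lists, over the 56 libraries after subtracting group means (bars from 0). All 11 genes of the S1 and S2 segments are below 0, from -0.73 to -0.30, while the S3 genes run from -0.54 to 0.90.

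The time-of-day calls of the proximal tubule lists are given beside the shares over all genes. Of the 11 S1 and S2 genes 7 passed the 24-h test under NRF (53.1% of all genes did). In the light under NRF 5 of the 11 were higher and 0 lower, where 29.5% of all genes were higher and 13.1% lower. The largest difference was that of Slc6a19, at 1.58 ± 0.18 (log2, SE; limma, adjusted p = 8.53e-10). Under DRF 3 of 11 passed the 24-h test (34.6% of all genes). In the light under DRF 0 of the 11 were higher (16% of all genes) and 1, Slc5a12, was lower (8.35% of all genes), at -0.65 ± 0.16 (log2, SE; limma, adjusted p = 0.00165), the direction Kap had under NRF. Of the 12 S3 genes, 6 passed the 24-h test under NRF (53.1% of all genes) and 7 under DRF (34.6%). In the light under NRF 3 were lower (13.1% of all genes) and 2 higher (29.5%). The lower ones were Slc22a7, Slc7a12 (-0.54 ± 0.19, adjusted p = 0.0158) and Slc16a9 (-0.52 ± 0.07, adjusted p = 7.01e-08). In the light under DRF the balance was the other way. There 3 S3 genes, Slc5a1, Slc5a10 and Fut9, were higher (16% of all genes) and 1, Slc22a7, was lower (8.35%). Of the 16 genes of the whole tubule 6 passed the 24-h test under NRF (53.1% of all genes) and 3 under DRF (34.6%). By light minus dark under NRF 4 of them were higher in the light (29.5% of all genes) and 2 lower (13.1%). By the same measure under DRF 2 were higher (16%) and 0 lower (8.35%).

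Since Kap is known for its control by sex hormones, genes that differ between male and female kidneys were examined in these females. Of 10 genes that androgen raises or that are higher in males, Slco1a1 (0.0347 TPM) and Cyp2j13 (0.607 TPM) were below the limit for testing, and Slc7a13 (1.88 TPM), Cyp4a12a (4.02), Acsm3 (4.76) and Cyp7b1 (6.38) were low. The mean of the 8 tested genes had r = -0.82 with Kap within groups (rho = -0.76; permutation, n = 56, p = 1e-05, the smallest possible, adjusted p = 6.33e-05). It was -0.77 without the 2 farthest libraries, -0.79 in the NRF and -0.86 in the DRF libraries, and -0.73 with Kap left out of the total. Pooled over libraries, with the group means left in, it was -0.45 (permutation, adjusted p = 0.00310).

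The members of this list differed. Cyp4b1, a cytochrome P450 of the kidney, had r = -0.72, Cyp4a12a, an arachidonic acid hydroxylase, -0.67, Odc1, ornithine decarboxylase, -0.58, Gusb, beta-glucuronidase, -0.39, and Cyp2e1 -0.34, while Cyp7b1 (0.50) and Slc7a13 (0.15) were positive. The median of the members had r = -0.23 (permutation, adjusted p = 0.370). Among 5 genes that are higher in females, 4 were positive, namely Cyp2a4 (0.60), the transporters Abcc3 (0.59) and Slc7a12 (0.38), and the prolactin receptor Prlr (0.17), and Cyp4a14 was at -0.65. Their mean had r = 0.49 (rho = 0.53; permutation, n = 56, p = 5.40e-04, adjusted p = 0.00256), 0.44 without the 2 farthest libraries, 0.50 in the NRF and 0.48 in the DRF libraries, where the adjusted p of the last was 0.177. Without replicate 4 of every group it was 0.33 and did not pass (permutation, adjusted p = 0.174). Slc7a12 stands in this list and in the S3 list, and Acsm3, Cyp7b1 and Slc7a13 stand in the androgen and the S3 list.

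Of the list of 15 hormone receptors and factors linked to Kap, all were past the limit for testing. The mean levels were 3.09 TPM for the oestrogen receptor Esr1, 43.2 and 21.5 for the thyroid hormone receptors Thra and Thrb, 249 for Dio1, which activates thyroid hormone, and 51.7 for the glucocorticoid receptor Nr3c1. Prlr had 100.2 TPM, the growth hormone receptor Ghr 299, the leptin receptor Lepr 6.82, and the factors Cebpa, Cebpb and Cebpd 72.0, 16.3 and 13.3. Hnf4a had 489 TPM and Ppib 178. The summed level of the 15 genes, at most 1868 TPM, was far below the lowest level of Kap.

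Within groups Ghr went most with Kap (r = 0.57, and 0.82 over group means), and Hnf4a (-0.61) and Nr3c1 (-0.37) went most against it. Ghr was at 0.67, Hnf4a at -0.39 and Nr3c1 at -0.13 with Kap left out of the total. Dio1 had r = 0.25 within groups and 0.77 over group means. Ppib, the partner, had 0.33 on the TPM scale, with 0.51 in the NRF and 0.10 in the DRF libraries. It had 0.65 with Kap left out of the total and 0.44 with median-of-ratios rescaling. Cebpd was at 0.20, Esr1 at -0.11, Thra -0.13, Thrb -0.08, Lepr 0.17, Cebpa -0.14 and Cebpb 0.13. The mean of the list gave r = 0.16 (rho = 0.21; permutation, n = 56, adjusted p = 0.471), and 0.45 with Kap left out of the total (permutation, adjusted p = 0.00917). In time, 8 of the 15 passed the 24-h test under NRF (53.1% of all genes) and 6 under DRF (34.6%). By light minus dark under NRF 4 of the 15 were lower in the light (13.1% of all genes) and 2 higher (29.5%). Ghr was among the lower (-0.28 ± 0.10, log2, SE, limma, adjusted p = 0.0178). Thra was among the higher (0.69 ± 0.07, adjusted p = 2.23e-11). In the mesor 4 of 15 passed, with Cebpd higher and Thra, Prlr and Cebpa lower under DRF, against 10.8% of all genes.

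Clock genes were checked beside Kap. All 16 clock genes passed the 24-h test under NRF (53.1% of all genes) and 15 under DRF (34.6%), and Nr1d1, a repressor of the loop, was higher in the light under NRF by 3.64 ± 0.18 (log2, SE; limma, adjusted p = 1.91e-20). Their mean level had r = -0.26 with Kap within groups (rho = -0.18; permutation, n = 56, adjusted p = 0.288), and single members ran from -0.62 for Hlf to 0.22 for Cry1.

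Markers of other cells were compared in the same way. The 5 genes of the glomerulus, among them Podxl, Synpo, Nphs1 and Wt1, were all negative, from -0.67 to -0.53, and their mean had r = -0.65 (rho = -0.67; permutation, n = 56, adjusted p = 6.33e-05), -0.64 without 2 libraries, -0.51 with Kap left out of the total, and -0.43 pooled over libraries. The glomerular sum ran from 221 to 472 TPM. The thick ascending limb (r = 0.30, Umod 0.54) and the distal convoluted tubule (r = -0.39, Trpm6 -0.68, Slc12a3 -0.56) did not pass by Pearson's r (permutation, n = 56, adjusted p = 0.0513 for both), though the latter did by rank (rho = -0.48, adjusted p = 0.00521; 0.33 and 0.0599 for the former). With Kap left out of the total the former passed at r = 0.44 (permutation, adjusted p = 0.00186) and so did the immune list, at 0.43 (adjusted p = 0.00917, from 0.30 and 0.127 on the TPM scale). Collecting duct (0.05), inner medulla (0.20), endothelium (-0.07), blood (0.04), adipose (-0.13), liver (-0.23) and immediate early genes (-0.06) had adjusted p from 0.202 to 0.844. The adrenal list was left with 1 tested gene, Star (-0.08). What share of the spread of Kap goes with the piece of kidney sampled was not tested.

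**Figure D5:**
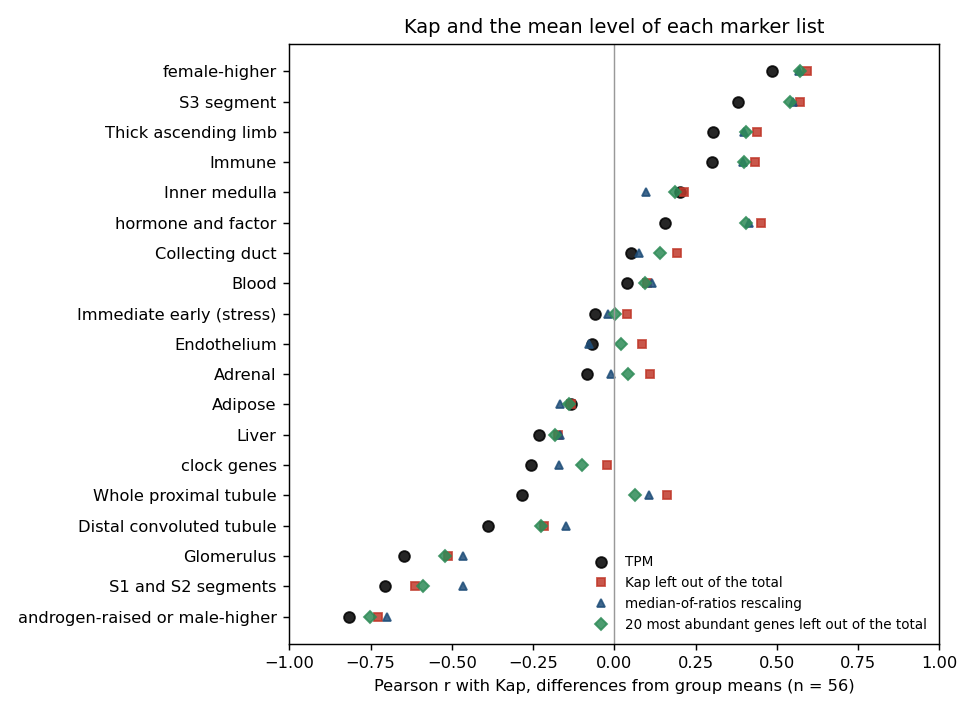
Pearson r of Kap with the mean log2(TPM + 1) of each of 19 marker lists over the 56 libraries, after subtracting group means, under the TPM scale (circles) and 3 other scalings. The androgen, S1 and S2, and glomerulus lists are below 0 (-0.82, -0.70 and -0.65 on the TPM scale) and the female-higher list above 0 (0.49) under all 4, while the whole proximal tubule changes sign.

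The tested genes nearest to Kap on chromosome 6 had r between -0.26 and 0.14 with it within groups. On one side were Smim10l1 (739 kb away, 136 TPM, r = -0.16), Ybx3 (2461 kb, 61.5 TPM, -0.12) and Styk1 (2496 kb, 1.20 TPM, 0.12). On the other were Etv6 (182 kb away, 30.8 TPM, 0.14), Bcl2l14 (543 kb, 2.01 TPM, 0.13) and Lrp6 (593 kb, 38.1 TPM, -0.26). Of the 6, 5 passed the 24-h test under NRF, all but Styk1 (53.1% of all genes). In the light under NRF Smim10l1 (-0.32 ± 0.04, log2, SE; limma, adjusted p = 2.21e-09) and Ybx3 (-0.13 ± 0.05, adjusted p = 0.0293) were lower, as Kap was. Bcl2l14 (0.54 ± 0.10, adjusted p = 1.71e-05) and Lrp6 (0.22 ± 0.08, adjusted p = 0.0258) were higher. The highest of the 6, at 136 TPM, was far below the lowest Kap value of 26937 TPM.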

How the data were processed

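Kidney poly(A) RNA of 56 mice was read from both ends on a BGISEQ-500, and the authors' processing notes name HISAT2, Bowtie2, RSEM, mm10 and GRCm38.p6. The deposited values, headed TPM, were entered as a score: the authors' values behave as log2(CPM + 1) divided by exon length and scaled per library, and the largest was 1266. The design had assumed linear TPM. Reads were recovered from them at GENCODE M21 or searched lengths for 99.7% of genes (expected counts to hundredths for 2280 genes, whole reads for 14702), and TPM were computed again. Recovery gave 25.4 to 28.1 M reads per library, fewer than the paper reports per sample. Whether a recovered read stands for a read pair was not tested. Groups came from the labels, and 1 column matched a group but no replicate number. Whether mice of a group shared a cage is not given in the sources used here.

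Rhythms, contrasts and the interaction were fitted with limma 3.58.1 (R 4.3.3) with a mean-variance trend on log2(TPM + 1) for the 13397 genes averaging 1 TPM or more, with Benjamini-Hochberg adjustment over all and a threshold of 0.05, and were tested on simulated data. Lists were scored as the mean log2(TPM + 1) of tested members, and correlations were tested by 100000 two-sided permutations within groups (numpy 2.4.6). Named were Kap, the 10 most abundant genes, the 5 most and 3 least like Kap by each of 2 measures, the S3, hormone and neighbour genes, and up to 5 abundant members or those called of other lists; others that complete a count were named after their values were seen. The gene and the lists were chosen with earlier results of these data known. Same-numbered mice did not deviate together (r over 0.1 in 135 of 351 pairs, median -0.00342), so numbers were not used as pairs. Some members of these groups are not reported here by name, and the counts and list means include them.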

Additional observations from a re-analysis of the deposited data

Results flagged for a closer look

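In 3 of the 14 groups of 4 mice a Kap value was set apart from the other 3 by Dixon's gap test (critical value 0.829), where chance gives about 1 group in 20. The lowest DRF ZT12 value, 71483 TPM, stood below 83101 to 83450, a gap of 0.971 of the range, in the tightest group of all. The highest DRF ZT20 value, 137173 TPM, stood above 57678 to 67461 (0.877 of the range), and the same library had the highest Slc22a7, at 636 TPM. The lowest NRF ZT0 value, 68053 TPM, stood below 86381 to 90139 (0.830 of the range).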

How the results depend on the processing

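Across the alternatives the direction of every Kap result past the threshold was kept, and 393 of 419 values for Kap stayed on the same side of the threshold. These include the tests that Kap did not pass to begin with. The 24-h rhythm under NRF kept its call in 31 values and lost it in 20. The light minus dark difference under NRF kept its call in 39 and lost it in 4. The 24-h rhythm under NRF lost its call at an amplitude (log2) of 0.39 with no filter on low genes (limma, adjusted p = 0.119). There more genes were tested, and the SE of the amplitude was 0.16, against 0.13 with the filter. The call was also lost at 0.39 with a replicate block (limma, adjusted p = 0.0603). So it was at 0.39, 0.32, 0.38, 0.39, 0.45, 0.40 and 0.39 without ZT0, ZT4, ZT8, ZT12, ZT16, ZT20 and ZT24 (fewer samples). Fitting the cosine to TPM ended it at 16063 TPM (limma, adjusted p = 0.0573). The numbers do not pair the mice, and the block changed no other Kap call. Without replicate 1 to 4 of every group, or without 1 NRF library (added after seeing the data), the amplitude ran from 0.30 to 0.48 and the light minus dark difference under NRF from -0.82 to -0.49. Both lost their calls without replicate 3 (adjusted p = 0.231 and 0.128) and without replicate 4 (0.138 and 0.0589).

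The 12-h component under DRF passed at 0.37 without ZT0 and 0.39 without ZT20, and the cause was not tested. The correlation with the S3 list passed at r = 0.57 with Kap left out of the total, 0.55 with median-of-ratios rescaling, 0.54 with the 20 most abundant genes left out, 0.43 pooled over libraries, 0.42 without ZT4 and 0.47 without ZT24, and over the libraries left out it ran from 0.34 to 0.43, passing only without the NRF ZT24 library with no number (0.42). With the median of the members, the collecting duct list turned to r = -0.57. By Spearman in place of Pearson, 3 of the 5 genes most like Kap within groups were shared, and 1 of 5 over group means. Gene counts moved by over 1.5 times in places, mainly without 1 replicate of every group, such as the mesor difference (570 to 3407, against 1453) and the ZT16 difference (242 to 1254, against 816). With 464 bases for Kap its mean level was 4198 TPM. Depth did not limit Kap, whose spread lay mostly between libraries of the same group. With 1 library per mouse, differences between mice and between library preparations cannot be told apart.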

Other observations

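Some libraries differed in markers of tissue other than the renal cortex. The summed TPM of the inner medulla markers Slc14a2, Akr1b3 and Aldh1a3 ran from 10.6 to 595, and that of the adipose markers Adipoq, Plin1, Cidec and Cfd from 0.207 to 2504, the highest being NRF ZT12 library 1, in which Kap was at 76359 TPM. The library with the lowest Kap, NRF ZT8 library 4, had 55.9 TPM of the inner medulla and 0.782 TPM of the adipose markers, and 8254 TPM of the S1 and S2 markers, against a median of 7066 over all libraries. The library with the highest Kap, DRF ZT20 library 2, had 16.9, 2.54 and 7032 TPM.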
